A study of Arabidopsis thaliana with 6 samples.

Results

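A group of 29 genes was examined whose transcripts were low together on 1 sid2.2 array and 1 Col-0 array, in Arabidopsis rosettes grown under low sulfate. sid2.2 is a mutant of ICS1, whose enzyme makes isochorismate on the way to salicylic acid, and Col-0 is the wild type. The mutant is represented by this 1 allele. Rosettes of both genotypes were harvested at day 60, after growth at 0.016 mM sulfate in short days (8 h of light, 16 h of dark), so that every group was sulfate-limited. Each of 3 cultures, started several months apart, gave 1 RNA pool of more than 6 plants per genotype, and each pool was measured on 1 array. There were therefore 3 arrays of sid2.2 and 3 of Col-0, numbered by culture, and no array of a sulfate-sufficient rosette was analysed here.

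The members were chosen by their own signals. A probe set qualified if it had 1 gene name, a mean MAS5 signal above 100 over the 6 arrays (MAS5 gives a linear, background-subtracted intensity scaled to a common level on each array), and signals on sid2.2 replicate 2 and Col-0 replicate 3 that were both at least 2-fold below the lowest of the other 4 arrays. Of the 22810 probe sets, 13513 had 1 gene name and 7042 of these passed the mean signal limit. Both signal limits were met by 31 of the 7042 (0.44%), and COR15A, a cold-regulated gene, and BCAT4, of glucosinolate synthesis, were set aside by the same rule. The difference between the low pair and the other 4 arrays is thus the selection itself. It is given below as a description, without a test. Low signals in a whole rosette can come from fewer cells of a type or from less RNA per cell, and the arrays cannot tell these apart.

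A rosette leaf grows by cell expansion. Expansins loosen the contacts between cellulose and the other polysaccharides of the wall, and enzymes that cut, de-esterify or acetylate pectins and hemicelluloses change how far that wall can be stretched. Many small secreted proteins, such as thaumatin-like proteins, defensins and dirigent proteins, share the apoplast with these enzymes, and some act in defence. Of the 29 genes, 14 encode proteins of these wall and apoplast families. This grouping was made from general knowledge after the members had been listed. It was not applied to the other probe sets, so no share over all probe sets stands beside this count. Whether these families are more frequent among the members was not tested. Of the members, 22 are named in the gene table by their locus only. Their family is given below where it is well established.

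The 2 low arrays were alike, but they were not a class apart. Over the 7011 probe sets with 1 gene name that passed the mean signal limit and were neither members nor the 2 genes set aside, log2 signals of sid2.2 replicate 2 and Col-0 replicate 3 correlated at 0.959, the highest of the 15 array pairs. This is a correlation across genes on arrays that share probe effects, so only the order of the values is informative. sid2.2 replicate 1 correlated at 0.947 with sid2.2 replicate 2 and at 0.957 with Col-0 replicate 3, nearly as high. Col-0 replicate 2 lay farthest off, at 0.837 and 0.889 with the same 2 arrays. Array medians were 150 and 151 on the low pair, against 131 to 162 on the other 4 arrays. The 3'/5' signal ratio of actin, which reports RNA integrity and target length, was 6.51 and 4.81 on the low pair, inside the range of 4.85 to 8.34 on the other arrays for sid2.2 replicate 2 and just under it for Col-0 replicate 3. For GAPDH this ratio was 3.26 and 2.33 on the low pair, against 2.74 to 3.87.

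In the 27 members whose low signals were both above background (the 95th percentile of bacterial control probe sets without target on the same array), the mean of the low pair was 2.61 to 12.6-fold below the mean of the other 4 arrays. Over all 29 the median was 3.79-fold (log2 -1.92). The median of all 7042 probe sets on the same measure was 0.046 (log2), a value near 0 because every array was scaled to the same level. Median member signals were 98.9 on sid2.2 replicate 2 and 126 on Col-0 replicate 3, against 410 and 458 on sid2.2 replicates 1 and 3 and 474 and 697 on Col-0 replicates 1 and 2. In 10 genes the drop exceeded 4-fold and in 3 it was under 3-fold. The mirror image of the rule, with both arrays at least 2-fold above the highest of the others, was met by 5 probe sets with 1 gene name. All 29 members were read by probe sets designed for a single transcript (99.6% of the 7042 were).

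**Figure D1:**
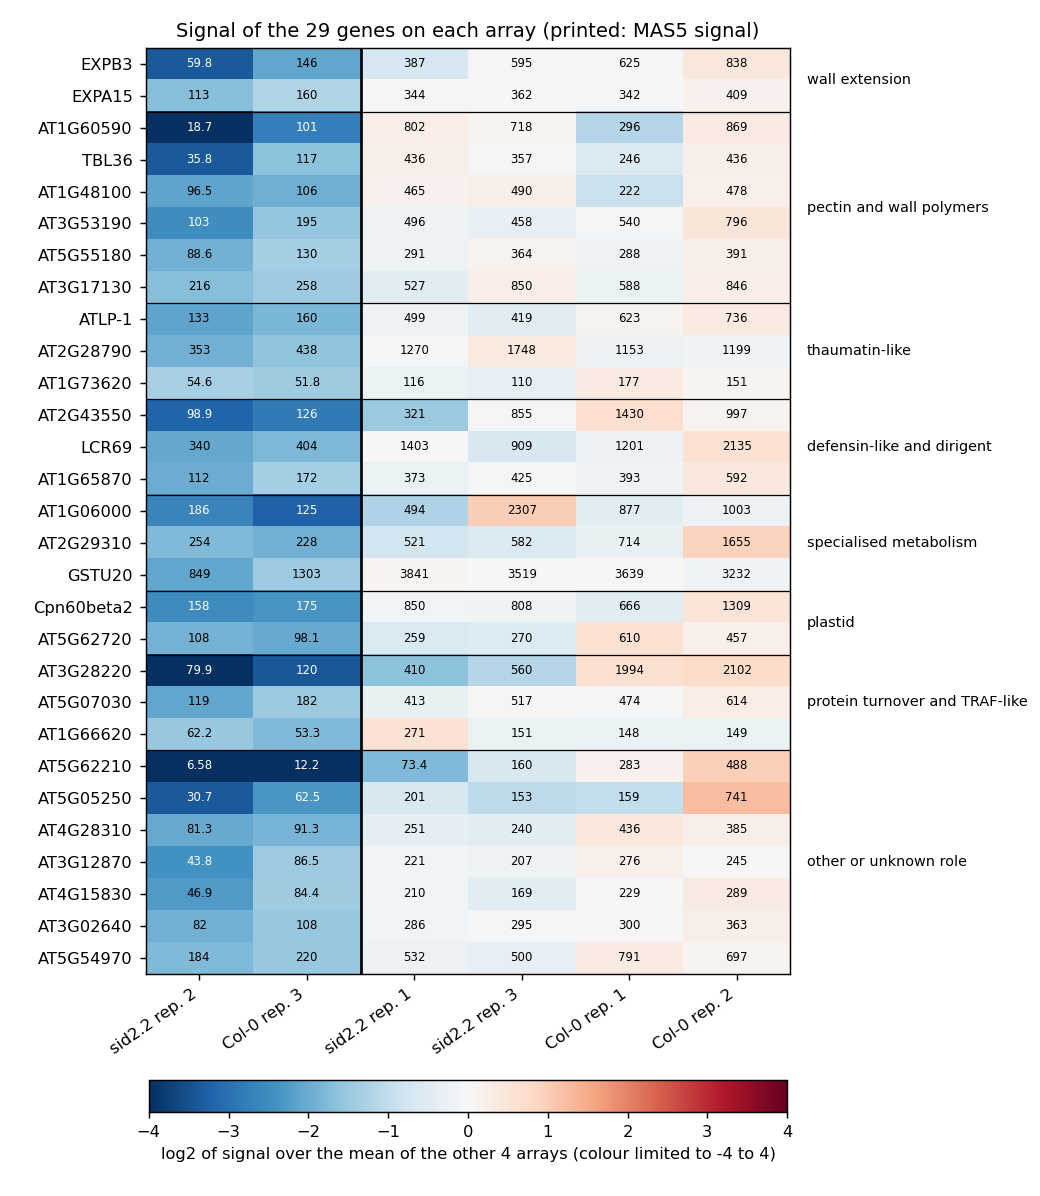
Signals of the 29 genes (rows, by family) on the 6 arrays (columns, the low pair left of the line). Printed values are MAS5 signals and the colour gives log2 of the signal over the mean of the other 4 arrays. The low pair is blue in every row, as the rule requires, and AT5G62210, AT3G28220 and AT1G60590 are the darkest.

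Both expansins of the group were low on the pair. EXPB3, a beta-expansin, had signals of 59.8 on sid2.2 replicate 2 and 146 on Col-0 replicate 3, against 387 and 595 on sid2.2 replicates 1 and 3 and 625 and 838 on Col-0 replicates 1 and 2. Its drop was 5.95-fold, and sid2.2 replicate 2 lay below Col-0 replicate 3. The alpha-expansin EXPA15 differed little among the other arrays, with 344 and 362 in sid2.2 and 342 and 409 in Col-0. On the low pair it had 113 and 160, a 2.67-fold drop.

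Those genes of the wider expansin and xyloglucan endotransglucosylase families that could be read moved mostly the same way. Of 27 such genes with a named probe set, 10 passed the mean signal limit, so these genes do not survey the families. In 9 of these 10 the low pair held both lowest signals, against 15.8% of all 7042 probe sets. EXPB3 and EXPA15 are among the 9 by selection, and without them the count was 7 of 8 and the median -0.85 (log2). The median of all 10 was -1.03 (log2), and -1.06 and -1.08 after quantile normalization and median centring. EXPB1 had the deepest drop of these 10 genes (log2 -2.86), with 50.5 and 78.6 on the low pair against 104 and 261 in sid2.2 replicates 1 and 3 and 651 and 860 in Col-0 replicates 1 and 2, and it missed the rule only because sid2.2 replicate 1 was itself low. EXPA4, EXPA8 and XTH32 had log2 values of -1.13, -0.97 and -1.10. Those of EXLA2, EXLB1 and XTH16 were shallower, at -0.74, -0.57 and -0.44. Only XTH32 and XTH16 of the 10 are xyloglucan endotransglucosylases. EXLA1, an expansin-like gene, ran the other way at 0.94 (log2) and was highest on the low pair, at 366 and 295 against 145 to 216.

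Pectin and other wall polymers accounted for 6 members. AT1G60590, a pectin lyase-like protein of the polygalacturonase family, had 18.7 on sid2.2 replicate 2 and 101 on Col-0 replicate 3, against 802 and 718 in sid2.2 replicates 1 and 3 and 296 and 869 in Col-0 replicates 1 and 2. The value on sid2.2 replicate 2 was under the background of that array, 27.9, from 27 control probe sets. AT1G60590 was the member in which the pair differed most, since its signal on sid2.2 replicate 2 was at most 0.276 times that on Col-0 replicate 3 when set to background. AT1G48100, a polygalacturonase that acts in cell expansion, had 96.5 and 106 on the pair. On the other arrays it had 465 and 490 in sid2.2 and 222 and 478 in Col-0, so Col-0 replicate 1 was the closest to the pair.

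TBL36, of the TRICHOME BIREFRINGENCE-LIKE family of wall polysaccharide acetyltransferases, had 35.8 on sid2.2 replicate 2 and 117 on Col-0 replicate 3, against 436 and 357 in the other sid2.2 arrays and 246 and 436 in the other Col-0 arrays. Its wider family was not low as a whole. Among 16 wall acetylation and pectin methylesterase genes above the mean signal limit the median was -0.040 (log2), and the low pair held both lowest signals in 3, against 15.8% of all. Those were TBL36, which the rule selected, TBL26 (log2 -2.67) and TBL41 (log2 -1.24). The remaining members of the class had shallower drops. AT3G53190, of the pectate lyase family, was 3.84-fold lower on the pair, AT5G55180, a family 17 glycosyl hydrolase, 3.05-fold, and AT3G17130, of the invertase and pectin methylesterase inhibitor family, 2.96-fold.

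A set of 3 thaumatin-like genes belonged to the group. AT2G28790 was the most abundant, with 353 and 438 on the low pair, against 1270 and 1748 in sid2.2 replicates 1 and 3 and 1153 and 1199 in Col-0 replicates 1 and 2, a 3.40-fold drop. ATLP-1 had 133 and 160 on the pair, against 499 and 419 in sid2.2 and 623 and 736 in Col-0. AT1G73620 had the smallest drop of all members, 2.61-fold, at 54.6 and 51.8 on the pair and 110 to 177 elsewhere. No signals of the pair overlapped with those of the other arrays in these genes, which the rule ensures.

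Both defensin-like genes and the dirigent gene of the group encode small secreted proteins. LCR69, a plant defensin also listed as PDF2.2, had 340 on sid2.2 replicate 2 and 404 on Col-0 replicate 3, against 1403 and 909 in sid2.2 replicates 1 and 3 and 1201 and 2135 in Col-0 replicates 1 and 2. AT2G43550, of a knottin family related to trypsin inhibitors, had 98.9 and 126 on the pair, against 321 and 855 in sid2.2 and 1430 and 997 in Col-0. Its drop of 8.03-fold was the fourth deepest, and sid2.2 replicate 1 stood between the pair and the rest. AT1G65870, a dirigent protein, was 3.13-fold lower on the pair.

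A set of 3 enzymes of conjugation and specialised metabolism shared the pattern. GSTU20, a tau-class glutathione transferase, was the most abundant member and nearly constant outside the pair. It had 849 and 1303 on the pair, against 3841 and 3519 in sid2.2 replicates 1 and 3 and 3639 and 3232 in Col-0 replicates 1 and 2, so the other 4 arrays spanned 1.19-fold and the drop was 3.31-fold. AT1G06000, a flavonol rhamnosyltransferase, had 186 and 125 on the pair, against 494 and 2307 in sid2.2 and 877 and 1003 in Col-0. Here sid2.2 replicate 3 stood far above every other array, as it did for the anthocyanin genes DFR (4674), AT4G14090 (2737) and UF3GT (2366). None of these 3 anthocyanin genes had both its lowest signals on the pair. AT2G29310, of the tropinone reductase-like dehydrogenases, was 3.61-fold lower, and Col-0 replicate 2 was its highest array at 1655.

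The plastid was represented by 2 members. Cpn60beta2, a subunit of the chloroplast chaperonin that folds Rubisco and other proteins, had 158 on sid2.2 replicate 2 and 175 on Col-0 replicate 3, against 850 and 808 in sid2.2 replicates 1 and 3 and 666 and 1309 in Col-0 replicates 1 and 2. This 5.45-fold drop was the eighth deepest, with nearly equal signals on the pair. AT5G62720, of the HPP family of chloroplast envelope proteins, had 108 and 98.1 on the pair, against 259 and 270 in sid2.2 and 610 and 457 in Col-0.

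Photosynthesis genes used as markers of rosette leaves were also lowest on the pair. Their drops were smaller than those of the members, but the rule required at least 2-fold of the members, so the depths cannot be compared. RCA, LHCB4.1, PRK and SBPASE had log2 values of -0.58, -0.41, -0.89 and -0.80, in 4 of 4 with both lowest signals on the pair, against 15.8% of all probe sets. Their summed signal was 41149 and 37634 on the pair, against 50335 to 69151 on the other arrays. The 7 nuclear photosystem and light-harvesting genes above the mean signal limit had a median of -0.35 (log2), with both lowest on the pair in 3, and LHCB4.1 is counted in both lists. The one root marker with a named probe set, PYK10, was also lowest on the pair, at 32.0 and 44.4 on the pair and 83.8 to 232 on the other arrays. No probe set was named for the flower markers. What part leaf or root markers had in the members' drop was not tested.

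Protein degradation and TRAF-like proteins gave 3 members, among them the one called between the genotypes only when the low pair was left out. AT3G28220, a TRAF-like protein, had 79.9 on sid2.2 replicate 2 and 120 on Col-0 replicate 3, against 410 and 560 in sid2.2 replicates 1 and 3 and 1994 and 2102 in Col-0 replicates 1 and 2. Its 12.6-fold drop was the deepest among members with both low signals above background. AT5G07030, an aspartyl protease, was 3.35-fold lower on the pair. AT1G66620, a SINA-like RING protein with a TRAF-like domain, was 3.11-fold lower, with its highest signal of 271 on sid2.2 replicate 1.

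AT5G62210, of the embryo-specific ATS3 family, had the lowest signals of the group. They were 6.58 on sid2.2 replicate 2 and 12.2 on Col-0 replicate 3, against 73.4 and 160 in sid2.2 replicates 1 and 3 and 283 and 488 in Col-0 replicates 1 and 2. Both low values were under the background of their arrays (27.9 and 31.8), so the drop was at least 8.41-fold when set to those levels. It was the only member with both low signals under background. AT5G05250 had 30.7 and 62.5 on the pair, against 201 and 153 in sid2.2 and 159 and 741 in Col-0, with Col-0 replicate 2 far above the rest. The ARM-repeat protein AT4G15830 was 3.42-fold lower on the pair. AT4G28310, AT3G12870, AT3G02640 and AT5G54970 were 3.80, 3.64, 3.27 and 3.12-fold lower, and no role is given here for these 4 or for AT5G05250.

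**Figure D2:**
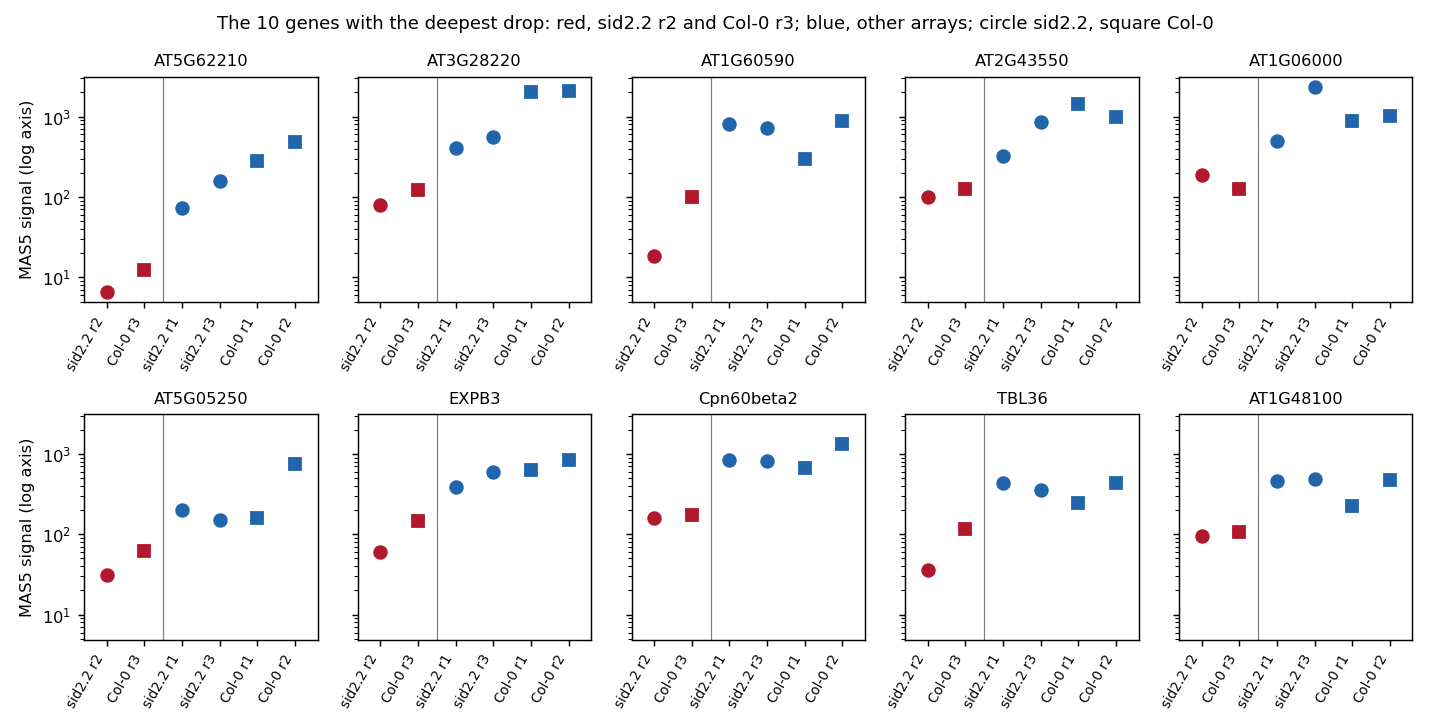
MAS5 signals (log axis) of the 10 genes with the deepest drop, 1 panel per gene and 1 point per array, with sid2.2 replicate 2 and Col-0 replicate 3 in red at the left. The other 4 arrays span 1.78-fold for TBL36 and 6.65-fold for AT5G62210.

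The limit cut through a continuous range. AT4G15830 was the member closest to it, with its higher low signal (84.4) at 0.4997 of its lowest other signal (168.8). The next probe sets outside were UPP, AT3G08740 and GH9B13, at 0.502, 0.503 and 0.507. Their signals on the pair were 258 and 376 for UPP, 1366 and 1622 for AT3G08740 and 7.98 and 110 for GH9B13, a glycosyl hydrolase family 9 gene. The 7.98 of GH9B13, on sid2.2 replicate 2, was under the background of that array (27.9). The members lay on all 5 chromosomes, with 8, 5, 7, 3 and 6 genes on chromosomes 1 to 5. Only EXPB3 and AT4G28310 were near neighbours, with 5 protein-coding genes between them in the TAIR10.1 gene table.

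Whether the low state was equally deep on both arrays depended on the measure. sid2.2 replicate 2 had the lower signal of the pair in 24 of 29 members, against 57.2% of the 7042 probe sets, and the median ratio of sid2.2 replicate 2 to Col-0 replicate 3 was 0.757. Measured against the other 2 arrays of its own genotype, the median drop was -2.005 (log2) for sid2.2 replicate 2 and -1.75 for Col-0 replicate 3. By that measure it was deeper in sid2.2 for 17 of 29 members, close to the 55.8% of all probe sets. With 1 array on each side neither difference has a replicate check. AT1G60590, with its sid2.2 replicate 2 signal set to background, was at log2 -4.77 or lower in sid2.2 and -2.33 in Col-0. TBL36 was at -3.47 in sid2.2 and -1.48 in Col-0, while AT3G28220 was deeper in Col-0 (-4.09) than in sid2.2 (-2.58).

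**Figure D3:**
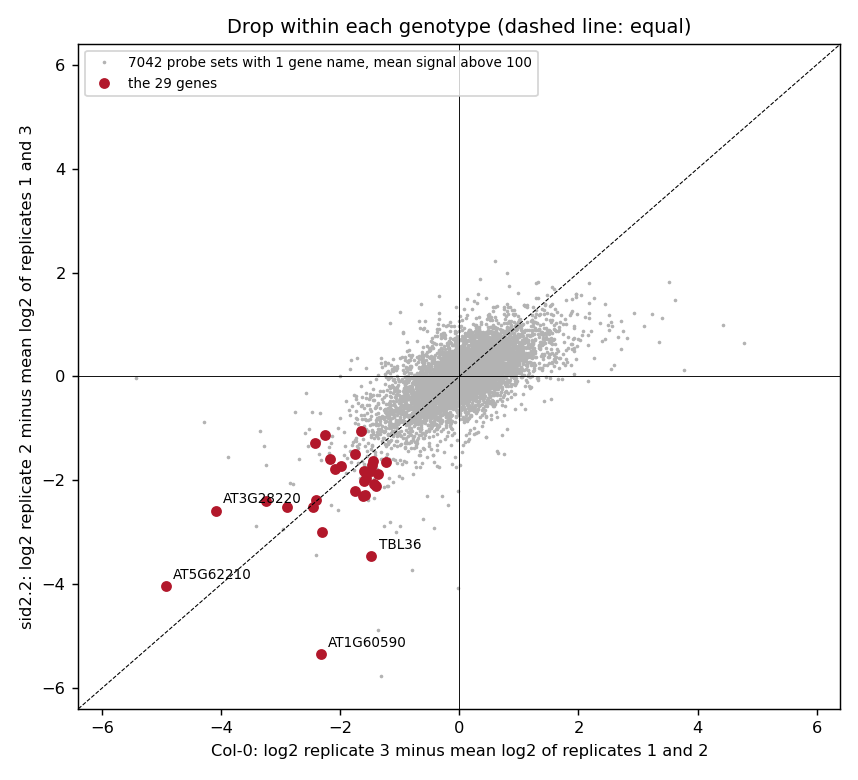
Log2 signal of sid2.2 replicate 2 minus the mean of sid2.2 replicates 1 and 3 (vertical axis) against the same for Col-0 replicate 3 and Col-0 replicates 1 and 2 (horizontal axis). Grey points are 7042 probe sets, red points the 29 genes, which all lie in the lower left by selection, with AT1G60590 and TBL36 below the line of equality and AT3G28220 above it.

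The other 4 arrays also differed among themselves. Among them the highest signal was on Col-0 replicate 2 in 16 members, on Col-0 replicate 1 in 6, on sid2.2 replicate 3 in 4 and on sid2.2 replicate 1 in 3. The lowest was on sid2.2 replicate 1 in 11, on sid2.2 replicate 3 in 9, on Col-0 replicate 1 in 8 and on Col-0 replicate 2 in 1. Over the 1115 probe sets with both lowest signals on the pair, Col-0 replicate 2 was the highest in 44.4% and sid2.2 replicate 1 the lowest of the other 4 in 42.3%, so the members shared this order with the larger set. The spread of the other 4 arrays had a median of 1.78-fold in the members, from 1.19-fold in GSTU20 to 6.65-fold in AT5G62210, and of 1.58-fold over the 7042 probe sets.

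The comparison the study was designed for, sid2.2 against Col-0, was then read for these genes. Each genotype gave 1 array to the low pair, so the rule did not set the direction of this contrast, but it widened the spread within both genotypes. It also makes the signals of the genotypes overlap in every member on the 6 arrays. A call of a member on all 6 arrays was therefore unlikely from the start, and its absence is no result about the members. In the limma fit over 13647 probe sets on all 6 arrays 28 members were tested, AT5G62210 being under the low-signal limit. At an adjusted p under 0.05, 0 of 28 were called (0.022% of all tested) among them 0 as lower in sid2.2 (0.00733%), and 0 of 28 had an unadjusted p under 0.05 (7.4% of all tested). The members' median difference was -0.41 (log2), against -0.0051 over all probe sets tested, and 24 of 28 lay below 0. This median turned to 0.23 without sid2.2 replicate 2 and 0.027 without Col-0 replicate 2, and was -0.99 without Col-0 replicate 3. In the fit without Col-0 replicate 3 alone, the low signals that the rule selects remained only in sid2.2. This pulls the members' differences down, and 28 of 28 lay below 0. The fit without sid2.2 replicate 2 is pulled up in the same way. Without Col-0 replicate 3, 0 of 28 members were called (2.21% of all tested, 0.469% as lower). There 7 had an unadjusted p under 0.05 (18.3% of all tested), with a smallest limma adjusted p of 0.0556. Because of the selection, these values do not speak to the genotype.

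Among the members with the deepest drop none of the differences reached 2 standard errors. For AT3G28220 the difference was -1.59 (SE 1.12, limma adjusted p = 0.791), for AT2G43550 -0.91 (SE 0.98, 0.849), for AT5G05250 -0.99 (SE 0.94, 0.8395) and for EXPB3 -0.82 (SE 0.89, 0.8497). Values nearer 0 were found for AT1G60590 (-0.42), TBL36 (-0.39), Cpn60beta2 (-0.16), AT1G06000 (0.31) and AT1G48100 (0.32), with limma adjusted p values from 0.928 to 0.970. In the fit without the low-signal limit AT5G62210 differed by -1.48 (SE 1.51, adjusted p = 0.878). These intervals are wide, and the absence of a call does not show that the genotypes were alike.

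Without the low pair, sid2.2 replicates 1 and 3 could be set against Col-0 replicates 1 and 2, where the rule had set only a lower bound on the signals. Culture 1 gave an array of both genotypes here, but the second array came from culture 3 in sid2.2 and from culture 2 in Col-0, so genotype and culture cannot be fully told apart in this fit. That fit called 235 of 13647 probe sets (1.72%), 179 higher and 56 lower (0.41%), and 1 of 28 members. Median centring, which moved the median of all probe sets to -0.10 (log2) from the 0.021 of the values as deposited, gave 218 higher and 153 lower, and again 1 member. The member was AT3G28220, which was lower in sid2.2 by -2.09 (log2; SE 0.26, limma adjusted p = 0.00289, and 0.000216 to 0.0281 over 8 alternatives, of which 4 leave 1 array in a genotype). Within culture 1 it had 410 in sid2.2 and 1994 in Col-0. It was lower in 2 of 2 sid2.2 arrays than in either Col-0 array. Leaving out a further array leaves 1 array in a genotype, which is then assumed to vary like the other genotype. The count of called members was then 2 without sid2.2 replicate 3, 3 without Col-0 replicate 1 and 2 without Col-0 replicate 2. The additional calls were AT2G43550, AT2G29310 with AT5G05250, and AT1G60590, the last as higher in sid2.2.

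The direction of the other members over these 4 arrays was mixed, with more below 0 than above. Both sid2.2 signals were below both Col-0 signals in 13 of 28 members, against 21.6% of all probe sets tested, and above them in 2, against 23.7%. The members' median was -0.28 (log2), against 0.021 over all probe sets tested. At an unadjusted p under 0.05 there were 5 of 28, against 14.8% of all. AT2G43550 differed by -1.19 (SE 0.41) and EXPB3 by -0.59 (SE 0.30), with limma adjusted p values of 0.199 and 0.395. At the other end AT1G60590 differed by 0.58 (SE 0.42, adjusted p = 0.572) and AT1G48100 by 0.55 (SE 0.36, adjusted p = 0.525), so these 2 members of the polygalacturonase family did not share the sign of the members' median. AT5G62210, in the fit without the low-signal limit, differed by -1.78 (SE 0.45, adjusted p = 0.197).

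**Figure D4:**
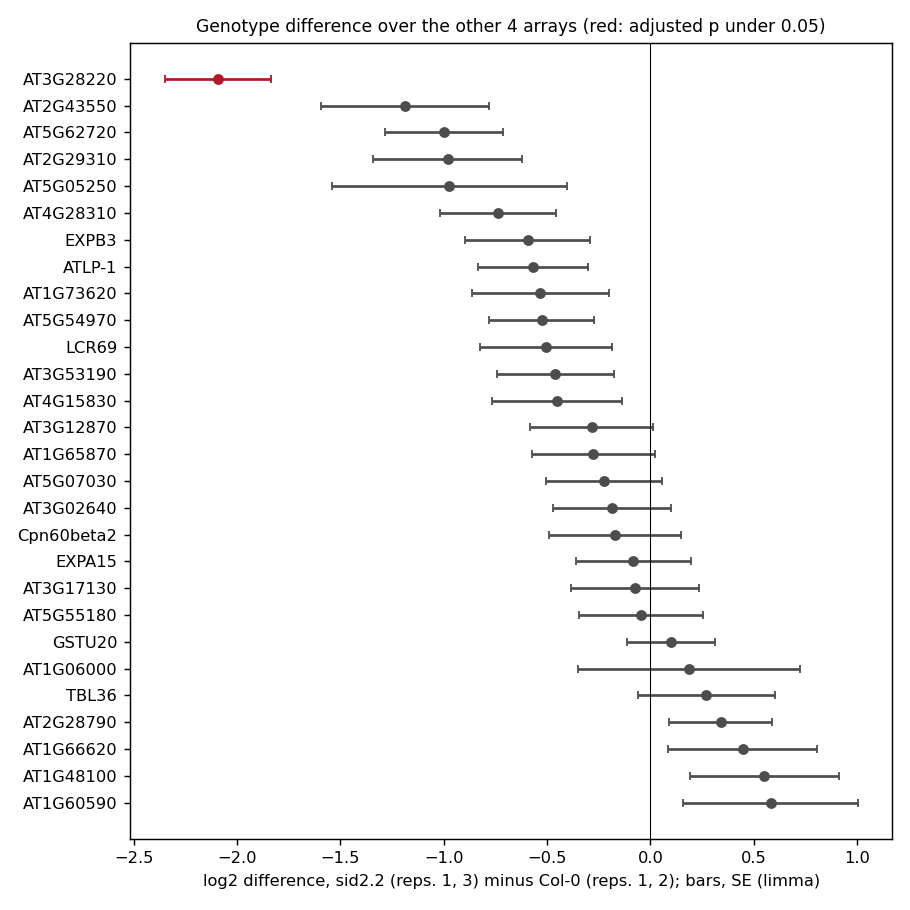
Log2 difference of sid2.2 (replicates 1 and 3) minus Col-0 (replicates 1 and 2) for the 28 members tested, with SE from limma. AT3G28220, in red, is the one called at an adjusted p under 0.05 and lies at -2.09, while AT1G60590 and AT1G48100 are the highest.

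Other gene lists were also read on the pair, but most of their entries had no named probe set. Named were 3 of 21 aliphatic glucosinolate entries and 6 of 18 cold and drought entries. For flavonoids and anthocyanins 3 of 10 were named, and for starch 3 of 14. The genes given below therefore do not survey these functions. Aliphatic glucosinolate synthesis had 3 genes above the mean signal limit. Among them the glucosyltransferase gene AT2G31790 had 261 and 348 on the pair, against 608 and 746 in sid2.2 replicates 1 and 3 and 499.7 and 864 in Col-0 replicates 1 and 2. UGT74B1, which glucosylates thiohydroximates, was at -0.35 (log2), and BCAT4, which met the signal limits, at -3.25. Of 5 cold and drought genes above the mean signal limit, COR15A and COR15B were at -3.33 and -2.60. COR47 and LTI30 were at 0.026 and -0.14, and COR27 was highest on the pair (1.25). These 5 genes thus did not move together (median -0.14, and 0.14 without Col-0 replicate 3).

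The clock gene GI, which peaks late in the day, had 167 and 57.5 on the pair, against 344 and 761 in sid2.2 replicates 1 and 3 and 219 and 375 in Col-0 replicates 1 and 2. It was the one clock gene with a named probe set, and its part in the members' drop was not tested. Tubulins, whose microtubules guide cellulose deposition, had a median of -0.42 (log2) over 7 genes, with TUB7 and TUA6 at -0.98 and -0.82 and TUA1 at 0.49. The low pair held both lowest signals in 4 of these 7, against 15.8% of all probe sets. For 3 flavonoid and anthocyanin genes the median was -1.10, but 0.30 without sid2.2 replicate 3. For 3 starch genes it was 0.080. Among 11 cytochrome P450 genes the median was 0.18 (-0.030 without sid2.2 replicate 2), and the pair held both lowest signals in 2 of them, CYP78A9 at -1.34 and CYP71B28 at -0.45. All 11 except CYP78A9 are of the CYP71B subfamily, so little else of the P450 genes was covered. Quantile normalization and median centring changed the sign of no list median given here.

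**Figure D5:**
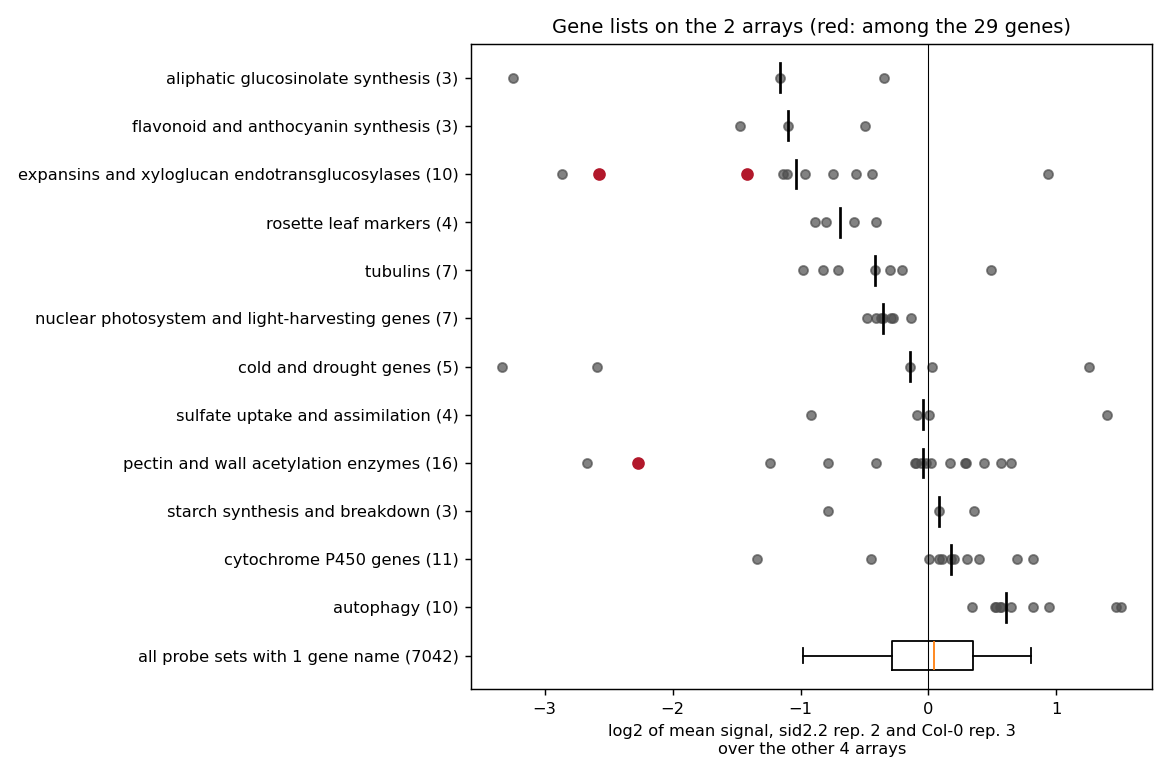
Log2 of the mean signal on sid2.2 replicate 2 and Col-0 replicate 3 over the mean of the other 4 arrays, for gene lists with at least 3 genes above the mean signal limit. Points are genes, red points are among the 29, black bars are list medians, and the box gives the quartiles and 5th to 95th percentiles of 7042 probe sets. Expansins lie mostly left of 0, wall acetylation genes on both sides, and all 10 autophagy genes (the ATG8 family and ATG3) right of 0.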

How the data were processed

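Values were linear intensities of 6 arrays as deposited, and the submitters' processing notes name MAS5 without a version. Scaling each array to a common level removes changes in total signal, and low signals vary most once logged. Arrays have no counting depth, and 3 arrays per genotype limit the precision. Probe sets were named through the platform annotation, and no symbol was changed by the RefSeq gene table (TAIR10.1); 503 had several names and 8794 none. For the genotype comparison log2 values of the deposited signals, leaving out controls and, by mean log2 signal, the lowest 40% (limit 79.7), were fitted with limma 3.58.1 in R 4.3.3 (eBayes with trend, two-sided, Benjamini-Hochberg). The fit was tested on simulated data with independent noise on each array, so that test does not cover arrays that deviate together. Alternatives were other scalings, no filter, 16 added before log2, culture as block and left-out arrays. Members, lists and tests were chosen with earlier results of these data known. Named were the members with the deepest drop or highest signal, up to 4 per list by highest signal, and up to 3 per function; the other members and further list genes were added after their values were seen. Culture numbers mark a shared batch and so pair the arrays; deviations of same-numbered arrays correlated at -0.035, -0.53 and -0.55.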

Additional observations from a re-analysis of the deposited data

How the results depend on the processing

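The number of genes found by the rule was 29. It was 155 at a 1.5-fold and 3 at a 3-fold limit, where the number follows from the limit, and 31 to 152 with 1 array left out, the highest without Col-0 replicate 3 (sid2.2 replicate 1: 79, sid2.2 replicate 2: 58). Leaving out an array loosens the rule, so a rise follows from that setting too, and 28 or 29 of the 29 were kept each time. Quantile normalization gave 37, of which 28 were among the 29, and median centring 36, of which 26 were. The members' median drop was between -2.08 and -1.75 (log2). Single drops moved by over 1.5 times in 4 members: without Col-0 replicate 3 that of AT1G60590 was 36.0-fold (a signal under background), TBL36 10.3-fold, EXPB3 10.2-fold and AT5G05250 10.2-fold, without sid2.2 replicate 2 that of AT1G60590 was 6.64-fold and TBL36 3.14-fold, and without Col-0 replicate 2 that of AT5G05250 was 3.66-fold. For sid2.2 against Col-0, limma called 3 probe sets on all 6 arrays, 1 with quantile normalization, 0 without the low-signal filter (1555 at an unadjusted p under 0.05), 5 with 16 added before log2 and 0 with culture as a replicate block (550 at an unadjusted p under 0.05). It called 0 to 302 with 1 array left out, the highest without Col-0 replicate 3, and 235 without that array and sid2.2 replicate 2. The block changed no call of a member. Called members were 0 on all 6 arrays under these alternatives except without the low pair (1), and 1 to 3 on the other 4 arrays with a further array left out. The sign of the genotype difference turned in 23 of 28 members with some array left out, in 18 without sid2.2 replicate 2 and in 12 without Col-0 replicate 2. Among the 10 with the deepest drop they ran from -1.36 to 1.36 for AT1G60590, -0.66 to 1.15 for AT1G06000, -1.60 to 0.18 for EXPB3, -0.97 to 0.63 for Cpn60beta2, -1.04 to 0.76 for TBL36 and -0.22 to 1.09 for AT1G48100. Without both low arrays AT1G60590 turned to 0.58 and TBL36 to 0.27. Leaving out 1 array of the low pair leaves the low signals that the rule selects in 1 genotype only. This pulls the members' differences up without sid2.2 replicate 2 and down without Col-0 replicate 3. What else turned the signs was not tested. On the other 4 arrays the 235 calls became 178 with quantile normalization, 371 with median centring, 88 without the low-signal filter, 259 with 16 added, and 79 to 380 with a further array left out, the fewest without sid2.2 replicate 1. List medians near 0 also turned sign with 1 array left out: wall acetylation 0.0034 without Col-0 replicate 1 and 0.053 without Col-0 replicate 2, and sulfate 0.065 without sid2.2 replicate 2 and 0.067 without sid2.2 replicate 3. The alternatives for the 4-array fit and the lists without single arrays were added after seeing the data.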

Other observations

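Autophagy genes ran against the 29 genes on the same 2 arrays. All those measured except ATG3 belong to the ATG8 family, so little else of autophagy was covered. In 10 of 10 measured genes above the mean signal limit both highest signals lay on the low pair, against 18.8% of all 7042 probe sets, and their median was 0.61 (log2; 0.67 and 0.58 after quantile normalization and median centring). Their log2 values ran from 0.34 to 1.51, and ATG8H, a ubiquitin-like protein of autophagosome membranes, was the highest. ATG8H had 1478 on sid2.2 replicate 2 and 822 on Col-0 replicate 3, against 431 and 583 in sid2.2 replicates 1 and 3 and 355 and 246 in Col-0 replicates 1 and 2. BGLU28, a thioglucosidase induced by sulfate deficiency, was also highest there, at 14191 and 13807 against 8079 and 7224 in sid2.2 replicates 1 and 3 and 4701 and 1256 in Col-0 replicates 1 and 2. For the assimilation genes SIR, APS3 and APS4 the log2 values were 0.0040, -0.093 and -0.91.

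The signal limits were also met by 38 of 5756 probe sets without a gene name (0.66%), with drops of 2.35 to 22.3-fold and a median of 3.48-fold. They are more numerous than the 29 named genes, so the functions described here cover less than the whole set of transcripts in this state.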
